A study of Mus musculus with 8 samples.

Results

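Long intergenic noncoding RNAs (lincRNAs) are long transcripts that come from their own genes, outside the genes for proteins, and carry no long reading frame with a known product. The 116 lincRNA genes described here were those of the 52550 genes in the deposited count matrix that GENCODE release vM21 types as lincRNA and that had a CPM (reads of the gene scaled to one common library total of gene reads) of at least 1 in each of 4 input libraries; they were thus chosen by their measured input levels. Gas5, Zfas1 and the Snhg genes, which host small nucleolar RNAs, were left out by name, which removed 4 expressed genes. Of the 116 that remained, 2, among them Epb41l4aos, still hold a small nucleolar RNA gene within their span. All cells were mouse embryonic stem cells (ESCs) of the RC9 background, with a Rex1-GFPd2-IRES-BSD reporter and a Cas9 transgene, in which Eif4a2 had been deleted with a pair of guide RNAs, and they were grown as undifferentiated cells in 2i and LIF. Eif4a2 encodes an RNA helicase that the study places in eIF4F, a complex of translation initiation. The knockout (KO) cells carried either an empty vector (EV) or Flag-tagged full-length Eif4a2 (eIF4A2FL), which was put back by piggyBac transposition under a constitutive CAG promoter and is therefore not under control of the gene's own promoter. RNA immunoprecipitation (RIP) with an anti-Flag antibody was run on extracts of both cell lines, and total extract RNA (input) was sequenced beside it, which gave 4 groups of 2 libraries: input EV, input eIF4A2FL, RIP EV and RIP eIF4A2FL. A figure legend of the study describes 2 clones of each re-expressed isoform as replicates, and the text does not say whether the EV libraries came from separate clones, so p-values measure the spread between these libraries, which may in part be technical. The sample labels name the tagged protein without its isoform, and 1 label field of RIP eIF4A2FL replicate 2 names Eif4a3 where its other fields name Eif4a2.

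Most lincRNAs are capped, spliced and polyadenylated by the same machinery as mRNAs. Some stay in the nucleus, where they build bodies such as speckles and paraspeckles or mark the chromatin of imprinted loci, and others reach the cytoplasm, where ribosomes and translation factors can contact them. Some are mainly the precursors of microRNAs (miRNAs), which are cut out of the transcript as hairpins. RIP recovers the RNAs that stay with a protein in an extract, so an RNA that the precipitate holds at the same share of reads as the input was recovered no better and no worse than the average RNA.

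The libraries held 2044853 to 11206420 gene reads. Reads assigned to genes made up 30.0 to 46.4% of all table reads in the inputs, 19.9 and 29.9% in RIP EV and 68.2 and 68.1% in RIP eIF4A2FL. The RIP EV libraries stood apart from the rest. Their biological coefficient of variation, the spread between replicates beyond counting noise, was 171%, against 30.1% in input EV, 28.1% in input eIF4A2FL and 23.1% in RIP eIF4A2FL, and each comparison with them is given below with and without each of them. All 9 markers of ESCs summed to 1432 to 2970 CPM per library, with 1 marker at 0 in each RIP EV library, against 0.825 to 6.87 CPM for 7 fibroblast genes and 17.9 to 72.7 CPM for 11 genes of differentiating cells. The marker at 0 was Pou5f1, which was at 5.78 to 19.7 CPM in the inputs. Otx2, 1 of the 3 genes of differentiating cells that passed the CPM minimum, was at 15.5 to 54.1 CPM there. Eif4a2 itself lay between 53.8 and 94.2 CPM in input EV and between 69.1 and 86.8 CPM in input eIF4A2FL. Reads at its 3′ end check neither the knockout nor the rescue, whose construct carries the coding sequence.

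A sample of the mature miRNAs that lie inside 6 of the lincRNA genes is shown here because several results below concern their host transcripts; the seed, bases 2 to 8, is in capitals. The miRNAs were not measured in these libraries, which count only the host RNA. Sequences are those of RefSeq on GRCm38.p6. Inside 6720427I07Rik lie 3 members of the let-7 family, which share the seed GAGGUAG.
let-7a-5p: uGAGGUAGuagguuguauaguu
let-7d-5p: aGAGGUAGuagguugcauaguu
let-7f-5p: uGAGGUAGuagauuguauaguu
Mir17hg, a target of Myc, holds the miR-17-92 cluster, in which miR-17 and miR-20a share 1 seed and miR-19a and miR-19b share another.
miR-17-5p: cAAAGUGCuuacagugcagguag
miR-20a-5p: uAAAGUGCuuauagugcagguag
miR-18a-5p: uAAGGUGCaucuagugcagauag
miR-19a-3p: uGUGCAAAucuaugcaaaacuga
miR-19b-3p: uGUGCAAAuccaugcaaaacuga
miR-92a-3p: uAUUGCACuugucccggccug
Single hairpins lie in E130102H24Rik (miR-101a), in Mir9-3hg (miR-9) and in the annotated span of Meg3 (miR-770), while Mirg holds 14.
miR-101a-3p: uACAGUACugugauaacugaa
miR-9-5p: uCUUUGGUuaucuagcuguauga
miR-770-5p: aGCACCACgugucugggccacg

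The reads were made with a 3′ mRNA kit that primes on stretches of A, so the ends of transcripts bear on what is counted. Counts per gene do not show where in a transcript the reads lie. The last 100 bases of the longest vM21 transcript of 7 lincRNAs are shown on the transcript strand, with mm10 coordinates, because these RNAs carry the main results; the polyadenylation signal AATAAA is in capitals where the end holds it.
Meg3, chr12:109571627-109571726, plus strand: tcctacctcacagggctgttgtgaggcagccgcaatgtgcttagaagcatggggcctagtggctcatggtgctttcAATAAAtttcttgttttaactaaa
Malat1, chr19:5795690-5795789, minus strand: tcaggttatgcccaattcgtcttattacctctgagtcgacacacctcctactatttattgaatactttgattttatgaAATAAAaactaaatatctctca
Neat1, chr19:5824708-5824807, minus strand: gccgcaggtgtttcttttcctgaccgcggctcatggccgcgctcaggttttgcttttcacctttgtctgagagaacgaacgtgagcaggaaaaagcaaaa
6720427I07Rik, chr13:48532905-48533004, minus strand: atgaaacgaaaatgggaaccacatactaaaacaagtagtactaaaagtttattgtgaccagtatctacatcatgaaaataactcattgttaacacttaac
Gm29680, chr13:90179217-90179316, minus strand: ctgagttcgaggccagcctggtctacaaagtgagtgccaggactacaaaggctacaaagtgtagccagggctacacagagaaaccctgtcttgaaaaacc
Lncenc1, chr13:97496908-97497007, plus strand: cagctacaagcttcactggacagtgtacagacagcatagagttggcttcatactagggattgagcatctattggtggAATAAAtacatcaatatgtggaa
1700020I14Rik, chr2:119607403-119607502, plus strand: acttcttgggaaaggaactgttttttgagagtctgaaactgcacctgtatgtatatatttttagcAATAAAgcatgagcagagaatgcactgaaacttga
Meg3, Malat1, Lncenc1 and 1700020I14Rik have the signal close to the annotated end, whereas the ends of Neat1, 6720427I07Rik and Gm29680 hold neither AATAAA nor ATTAAA in their last 50 bases. Over all 116 genes, 75% held either signal in the last 50 bases of at least 1 annotated transcript, so that a gene such as Neat1 counts through a shorter transcript, against 90.4% of expressed protein-coding genes and 87.4% of the 10751 expressed genes with a transcript to read. AATAAA and ATTAAA were searched on the transcript strand only.

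Their levels in the inputs chose the genes and are therefore a description. Mean input levels ran from 1.72 CPM upwards with a median of 8.81 CPM, and 51 of the 116 genes had a mean of at least 10 CPM. The genes just inside the minimum were 4833407H14Rik and Gm1070, with lowest inputs of 1.08 and 1.12 CPM, and just outside it lay Gm38509 and Platr20, at 0.964 CPM each. Gm42418 took by far the most reads, at 104900 and 18333 CPM in input EV and 94432 and 701 CPM in input eIF4A2FL. It overlaps the ribosomal RNA repeat, as does Gm26917, so reads from ribosomal RNA and from a lincRNA cannot be told apart there. With both left out, the lincRNAs made up 0.349 to 0.452% of gene reads in the inputs, for RIP EV 0.948 and 1.20% and for RIP eIF4A2FL 0.237 and 0.248%. The share in the precipitate of the tagged protein was thus below that of every other library, and the share in the precipitate without tag was above. Meg3 alone accounted for 54.1 and 57.7% of those reads in RIP EV, for 10.2 and 14% in RIP eIF4A2FL and for 16.1 to 23.9% in the inputs.

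Which RNAs the tagged protein retained was read first from RIP eIF4A2FL against its own input. Of the 116 lincRNAs, 28 were lower in RIP eIF4A2FL and 1 was higher (edgeR's quasi-likelihood test on the 4 libraries, adjusted p under 0.05 over 10754 expressed genes). That was 24.1% of the lincRNAs lower against 8.46% of all genes, and 0.862% higher against 8.44% of all genes. The median log2 fold change was −0.59 for the lincRNAs and 0.02 for all genes. Without adjustment, 42 lincRNAs were lower and 6 higher at p under 0.05, against 16.7 and 17.3% of all genes. For all 28, both RIP libraries lay below both inputs, and 20 of the 28 were at least 4-fold lower. The same shares among all genes called lower were not counted. Scaling by library size in place of TMM factors moved the median of all genes to 0.32, and folds are to be read relative to that median. By plain CPM, 51 lincRNAs lay below and 23 above both inputs (18.7 and 45.8% of all genes), and by TMM-scaled CPM 60 lay below and 12 above (30.1 and 31.6% of all genes). The inputs that chose the genes are one side of this comparison, as they are for all 10754 genes. Lower calls fell on 14 of the 51 lincRNAs with a mean input of at least 10 CPM and on 14 of the 65 below it. The shares of all genes at these input levels were not counted.

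Other fits changed the number of calls. With the spread estimated over all 8 libraries, whose common coefficient of variation was 65.0% against 25.5% for the 4 compared here, 0 of the 28 calls remained, and 6 of all 10754 genes, or 0.0558%, were lower and 0 higher. DESeq2 called 27 of the 28, and 2 lincRNAs higher, on the same 4 libraries (10.2 and 9.27% of all genes), and 17 of the 28 on all 8.

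**Figure D1:**
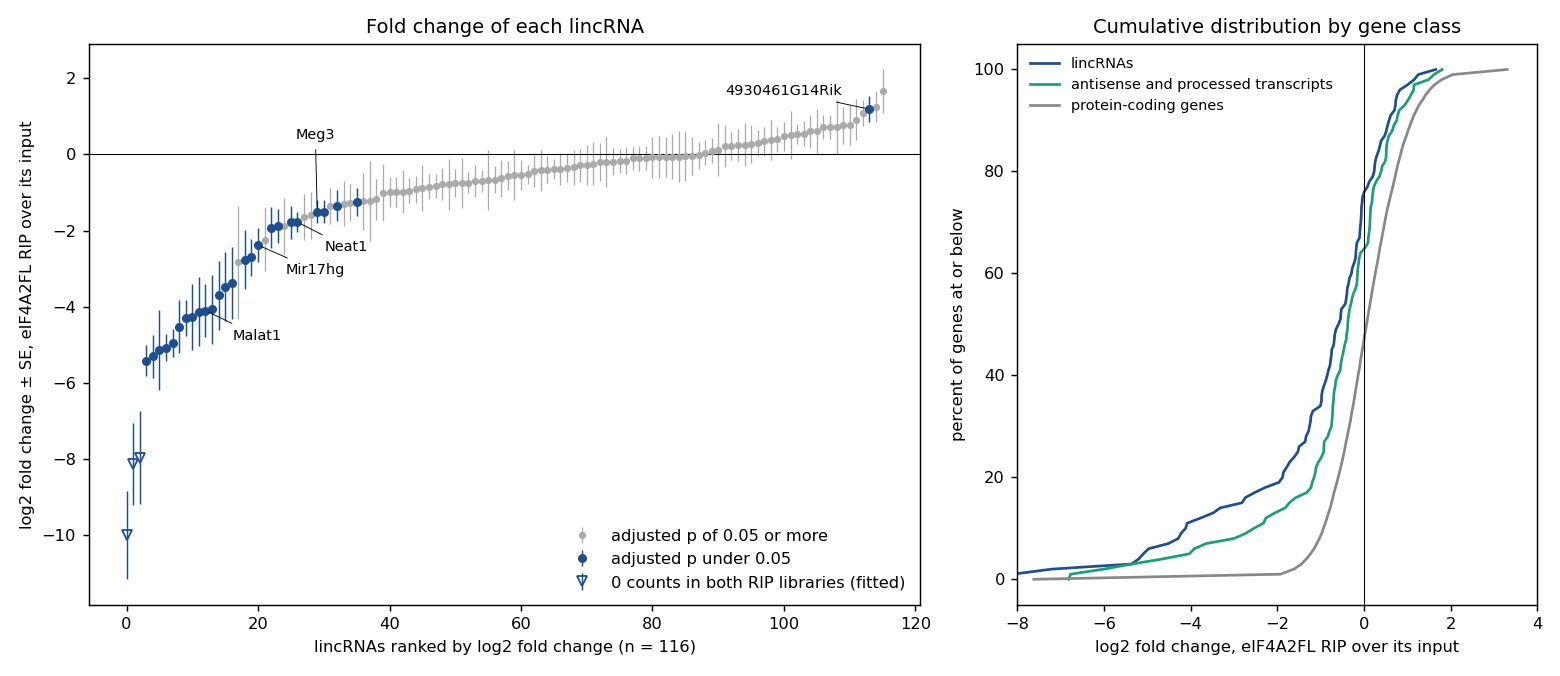
RIP eIF4A2FL against its input. The left panel ranks the 116 lincRNAs by fitted log2 fold change with its standard error (blue where the adjusted p is under 0.05, open triangles for genes with 0 reads in both RIP libraries), and the right panel gives the cumulative share of genes at or below each log2 fold change by gene class; the curve of the lincRNAs lies left of that of the protein-coding genes, with medians of −0.59 and 0.06.

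Depletion below 10% of the input was counted next. By mean CPM, 15 of them, or 12.9%, stood below this level, against 122 of all genes, or 1.13%. Most did not move far, since 72, or 62.1%, stayed within 2-fold of their input, against 72.2% of all genes. Among the 134 expressed antisense and processed noncoding transcripts, 22 were called lower and 3 higher with a median of −0.38, and among 10087 protein-coding genes 676 were lower and 900 higher with a median of 0.06. The differences between these classes were not tested.

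Nuclear RNAs came first in order of role. Of the 4 expressed lincRNAs on the list of nuclear-retained RNAs (Malat1, Neat1, Meg3 and Mirg), 3 fell. Malat1, an abundant RNA of nuclear speckles, was at 754 and 179 CPM in input eIF4A2FL and at 19.5 and 48.4 CPM in the precipitate. The inputs differed from each other by more than the precipitates did, and the groups did not overlap. Its log2 fold change was −4.10 ± 0.70 (SE, n = 2 against 2, adjusted p = 0.00685), with −2.64 when input eIF4A2FL replicate 1 was left out, −4.82 without input replicate 2 and −4.96 without RIP replicate 2. Neat1, the scaffold of paraspeckles, was at 132 and 131 CPM in the inputs and at 44.9 and 49.5 CPM in the precipitate. It fell by 1.78 ± 0.27 on the log2 scale (SE, n = 2 against 2, adjusted p = 0.00472). Expressed RNAs of other gene types on this list went both ways. Firre was at 14.1 and 14.3 CPM in the inputs and at 16.8 and 21.1 CPM in the precipitate. Lower in both precipitates were Tsix (8.01 and 5.78 against 2.59 and 4.31 CPM), Kcnq1ot1 (12.6 and 5.62 against 2.77 and 2.31 CPM) and Rian, given below.

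Meg3, the maternally expressed lincRNA of the imprinted Dlk1-Dio3 locus, was at 575 and 783 CPM in the inputs and at 241 and 346 CPM in the precipitate. Its log2 fold change was −1.50 ± 0.31 (SE, n = 2 against 2, adjusted p = 0.0126), and −1.24 with adjusted p = 0.0903 without RIP eIF4A2FL replicate 1. Mirg, which lies downstream in the same locus, was at 24.0 and 33.4 CPM in the inputs and at 22.8 and 14 CPM in the precipitate and did not pass (log2 fold change −0.95 ± 0.33, adjusted p = 0.0787). Rian, the small nucleolar RNA host between them, is typed as a processed transcript and is not one of the 116. It was at 23.8 and 24.1 CPM in the inputs and at 2.14 and 1.90 CPM in the precipitate. All 3 RNAs of the locus thus had lower levels in both precipitates than in both inputs, and the gap was widest for Rian.

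Neither of the 2 lincRNAs on the list of cytoplasmic RNAs passed the test. Dancr, on the same list but typed as a processed transcript, had lower levels in both precipitates. It was at 38.3 and 22.2 CPM in input eIF4A2FL and at 6.60 and 1.70 CPM in RIP eIF4A2FL. 1700020I14Rik, the mouse Cyrano RNA that binds miR-7, was at 63.0 and 57.2 CPM in the inputs and at 52.3 and 61.2 CPM in the precipitate, and these ranges overlapped. Epb41l4aos was at 308 and 333 CPM in the inputs and at 290 and 262 CPM in the precipitate (log2 fold change −0.52 ± 0.26, adjusted p = 0.184). Of the 6 lincRNAs tied to pluripotency, 0 passed. Lncenc1, an RNA of naive ESCs, was at 183 and 147 CPM in the inputs and at 150 and 106 CPM in the precipitate. The 5 Platr RNAs (pluripotency-associated transcripts) had log2 fold changes from −0.98 for Platr27 to 0.61 for Platr26. Pvt1, the neighbour of Myc, was at 14.7 and 12.4 CPM in the inputs and at 11.2 and 8.62 CPM in the precipitate, and it did not pass (adjusted p = 0.172). None of the 3 lincRNAs on the list for the X inactivation centre, Xist, Jpx and Ftx, reached the CPM minimum.

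Hosts of small RNAs were the next group. On the list of small RNA hosts, 3 of 5 expressed lincRNAs fell (Mir17hg, Mir124a-1hg and Meg3). Of the 6 lincRNAs with a RefSeq hairpin inside their span, 4 were lower, with a median log2 fold change of −1.71. Of the other 110, among them Mir124a-1hg, 24 were lower with a median of −0.54. The difference was not tested. The host of the 3 let-7 sequences shown above, 6720427I07Rik, was at 29.6 and 40.2 CPM in the inputs, from 137 and 250 reads, and at 0.982 and 1.00 CPM in the precipitate, from 11 and 10 reads. It was 35.2-fold lower by mean CPM (log2 fold change −5.42 ± 0.40, n = 2 against 2, adjusted p = 0.00014). Mir17hg was at 9.95 and 11.1 CPM in the inputs and at 2.86 and 2.10 CPM in the precipitate (log2 fold change −2.38 ± 0.44, adjusted p = 0.00884). E130102H24Rik, with miR-101a inside, was at 4.54 and 3.69 CPM in the inputs and at 1.16 and 1.50 CPM in the precipitate, and it also fell (adjusted p = 0.0405).

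Mir9-3hg went the other way without passing the test, at 3.03 and 2.41 CPM in the inputs and at 6.78 and 4.61 CPM in the precipitate. Its miRNA, miR-9, acts in neural progenitors. Mir124a-1hg is named for the neuronal miR-124a, but the RefSeq set used here placed no hairpin within its annotated span. Whether that set is complete for this gene was not checked. It was at 55.4 and 33.9 CPM in the inputs and at 4.02 and 1.60 CPM in the precipitate, and it fell by 4.29 ± 0.48 on the log2 scale (SE, n = 2 against 2, adjusted p = 0.00132). Without RIP eIF4A2FL replicate 1 the log2 fold change was −5.06.

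**Figure D2:**
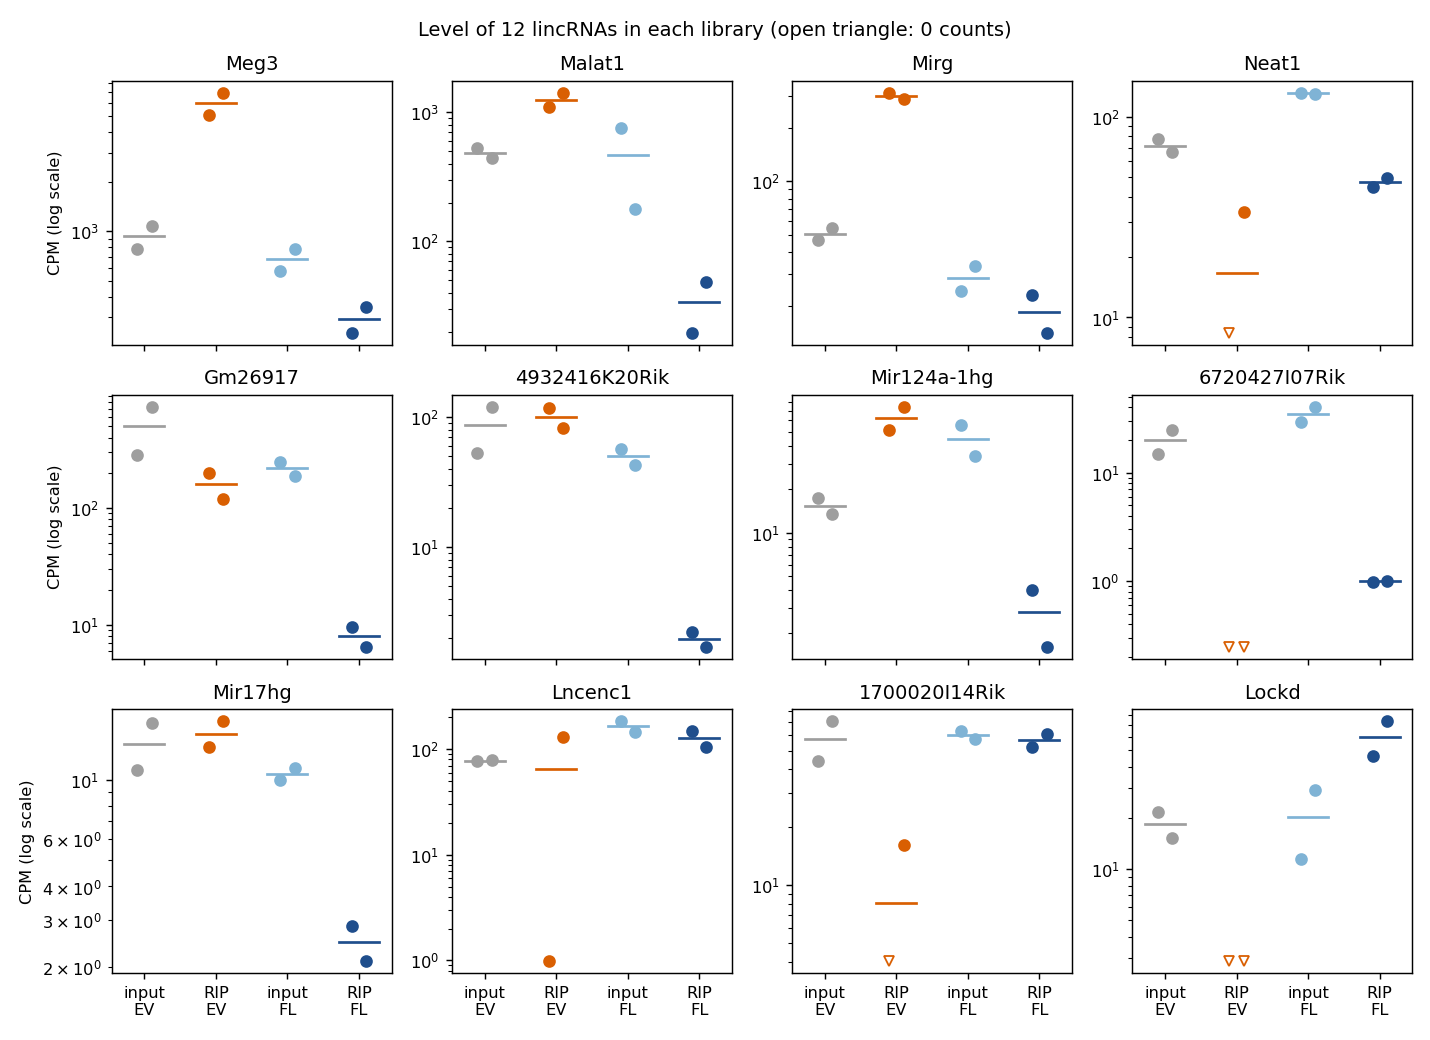
Levels of 12 lincRNAs in each library, in CPM on a log axis (FL stands for eIF4A2FL). Each point is 1 library, each bar a mean of 2 libraries and each open triangle a library with 0 reads; Malat1 and Meg3 stand highest in RIP EV and lowest in RIP eIF4A2FL, and Lockd has 0 reads in both RIP EV libraries.

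The deepest depletion was seen in lincRNAs of no known role. Gm45184, at 20.6 and 7.07 CPM in the inputs from 95 and 44 reads, had 0 reads in both RIP eIF4A2FL libraries and was at least 97.5-fold lower, counted against a floor of 3 reads over both libraries (0.142 CPM). Gm15834 and Gm26830 also had 0 reads in both, with 17 and 24 reads and with 21 and 14 reads in the inputs, and were at least 26.6-fold and 24.0-fold lower. All 3 passed the test, with adjusted p = 0.00241, 0.00393 and 0.00594. They were the only lincRNAs of the 116 without a read in RIP eIF4A2FL, and the fitted fold of each depends on the prior count. Gm15834 lies opposite Fam126b and Gm26830 on the same strand as Phb, and without a stated strand setting reads of such neighbours could not be told apart.

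Gm29680, on chromosome 13, was at 14.9 and 19.8 CPM in the inputs and at 0.268 and 0.802 CPM in the precipitate. It was 32.4-fold lower by mean CPM (log2 fold change −5.30 ± 0.56, adjusted p = 0.00114), with −4.67 and −6.28 when RIP replicate 1 or 2 was left out. 4932416K20Rik was at 56.7 and 43.0 CPM in the inputs and at 2.23 and 1.70 CPM in the precipitate, 25.3-fold lower (log2 fold change −4.96 ± 0.37, adjusted p = 0.00014). Gm26917, one of the 2 ribosomal RNA loci, was at 246 and 189 CPM in the inputs and at 9.55 and 6.41 CPM in the precipitate and fell (log2 fold change −5.08 ± 0.36, adjusted p = 0.000103). Gm42418, the other, did not pass (adjusted p = 0.207), and its log2 fold change of −2.83 turned to 3.35 when input eIF4A2FL replicate 1 was left out. Of the 27 called lincRNAs that do not overlap the ribosomal repeat, 27 were called again when both ribosomal loci were left out of the counts.

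Only 4930461G14Rik was called higher. It was at 7.79 and 8.35 CPM in the inputs and at 21.6 and 24.0 CPM in the precipitate (log2 fold change 1.19 ± 0.34, adjusted p = 0.0392). The call was lost when any of the 4 libraries was left out, with adjusted p from 0.0507 to 0.225 and log2 fold changes from 1.06 to 1.30. Lockd, which is transcribed downstream of the cell cycle inhibitor gene Cdkn1b, was at 11.5 and 29.2 CPM in the inputs and at 46.2 and 73.6 CPM in the precipitate (log2 fold change 1.26 ± 0.42, adjusted p = 0.0642). Bvht (Braveheart), a lincRNA of the cardiac lineage, was at 7.36 and 11.9 CPM in the inputs and at 25.1 and 25.4 CPM in the precipitate (log2 fold change 1.08 ± 0.34, adjusted p = 0.0571). Gm5113 had the highest fitted value among lincRNAs whose groups did not overlap (1.66 ± 0.58), at 1.73 and 1.12 CPM in the inputs and at 4.28 and 6.72 CPM in the precipitate, and did not pass (adjusted p = 0.0759). The precipitates of these 3 RNAs lay above both inputs, but the fit did not separate them.

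The genes' structure was compared with their recovery. Of the 14 lincRNAs with a single exon in every annotated transcript, 6 were lower, with a median log2 fold change of −1.69, and the values of all 14 were below 0. With a maximum of 2 exons the count was 11 of 39 with a median of −0.87, and with 3 or more exons 11 of 63 with a median of −0.19. Spearman's rank correlation between exon number and log2 fold change over the 116 genes was 0.30. Among antisense and processed noncoding transcripts the medians were −0.63 for 12 genes with 1 exon, −0.35 for 31 with 2 and −0.35 for 91 with more. Of these, 25, 22.6 and 13.2% were called lower, against 42.9, 28.2 and 17.5% of the lincRNAs in the same order. Among protein-coding genes the medians were −0.13, −0.09 and 0.07, and 9.94, 3.93 and 6.73% were called lower. Genes within each class share libraries and normalisation and are not replicates, so no p-value is given.

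The lincRNAs were also grouped by their RefSeq class and by their annotated ends, and the differences between these groups were not tested. RefSeq calls 9 of the 116 protein-coding, among them 1810058I24Rik, Gm1070, Gm32856 and Gm37494. Of the 9, 0 were called, with a median log2 fold change of −0.24 and values from −0.85 to 0.62. The longest reading frame of the longest transcript had 918 codons in Gm37494. It had 1054 codons in 4932416K20Rik, which RefSeq calls long noncoding RNA. Whether these frames are translated was not tested. 1810058I24Rik was at 176 and 393 CPM in the inputs and at 278 and 331 CPM in the precipitate. Of the 73 that RefSeq also calls long noncoding RNA, 14 were lower with a median of −0.52, and of the 29 with no RefSeq match 13 were lower with a median of −1.64. By the polyadenylation signal in the last 50 bases, 20 of 87 lincRNAs with either signal in any annotated transcript and 8 of 29 with neither were lower, with medians of −0.55 and −0.69.

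**Figure D3:**
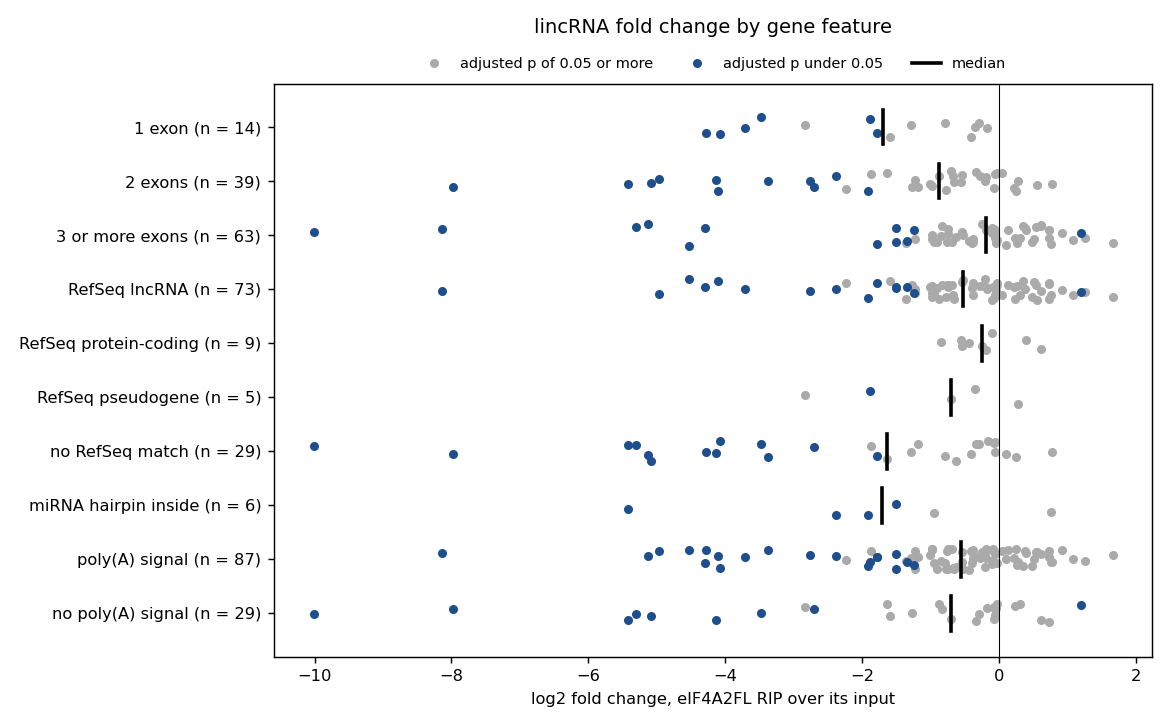
Log2 fold change of RIP eIF4A2FL against its input for the 116 lincRNAs. They are split by exon number, RefSeq class, presence of a RefSeq miRNA hairpin and presence of a polyadenylation signal in any annotated transcript. Each point is 1 gene and each line a median, and genes with 0 reads in the precipitate are drawn at their fitted value; hosts of miRNA hairpins, single-exon genes and genes without a RefSeq match have the lowest medians, −1.71, −1.69 and −1.64.

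What the antibody and beads retain without a tagged protein was read from RIP EV against its input. Of the 116, 42, or 36.2%, had 0 reads in both RIP EV libraries, against 18.2% of all expressed genes, and 40, or 34.5%, had reads in only 1 of them, against 30.7% of all genes. By counting error alone, a count of 0 over both libraries allows up to 0.557 CPM. The spread between the RIP EV libraries is not part of this bound. RIP eIF4A2FL replicates 1 and 2 each had reads of 110 lincRNAs, against 46 and 62 in the RIP EV replicates, whose depth was lower. edgeR called 0 lincRNAs in either direction at adjusted p under 0.05 (0% of all genes both ways), and the lowest adjusted p was 0.0719. At unadjusted p under 0.05, 49 were lower and 6 higher, against 25.2 and 4.28% of all genes. DESeq2 on the same 4 libraries called 3 lower and 6 higher (4.53 and 2.84% of all genes), the fit over all 8 libraries 46 lower and 7 higher (26.3 and 4.50%). Leaving out RIP EV replicate 1 gave 71 lower and 20 higher (41.1 and 16.9% of all genes), and leaving out replicate 2 gave 80 lower and 21 higher (60.3 and 16.2%). The median log2 fold change was −1.42 against −0.65 for all genes, and −6.51 without RIP EV replicate 2.

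A small set of lincRNAs lay above the inputs in the precipitate without tag. In both RIP EV libraries, 11 (9.48% of the 116, against 14.6% of all genes) were above both EV inputs and 58 (50% against 44.9%) were below both. Meg3 went from 781 and 1082 CPM in the inputs to 5128 and 6929 CPM after the precipitation, 6.47-fold higher by mean CPM (edgeR adjusted p = 0.0719, DESeq2 adjusted p = 1.87e-10). Its neighbour Mirg was at 46.5 and 54.9 CPM in the inputs and at 313 and 291 CPM in RIP EV, 5.96-fold higher (edgeR adjusted p = 0.0719, DESeq2 adjusted p = 8.97e-05), while Rian, between them, was at 41.3 and 68.3 CPM in the inputs and at 130 and 44.2 CPM in RIP EV. Malat1 was at 533 and 440 CPM in the inputs and at 1097 and 1408 CPM in RIP EV. Meg3 and Mirg stood well above the inputs in both RIP EV libraries, Malat1 by less, and Rian in 1 of the 2.

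Gm16973, opposite Mphosph8, was at 16.2 and 10.9 CPM in the EV inputs and at 208 and 219 CPM in RIP EV, 15.7-fold higher by mean CPM. Gm17300, opposite the nucleotide exchange factor gene Rcc1, was at 1.51 and 1.87 CPM in the inputs, from 11 and 6 reads, and at 514 and 91.5 CPM in RIP EV, from 1052 and 306 reads. Both passed with DESeq2 on 4 libraries (adjusted p = 8.54e-07 and 3.69e-10) and not with edgeR (adjusted p = 0.0719 each). Neat1, unlike Malat1, Meg3 and Mirg, had 0 reads in RIP EV replicate 1 and 33.5 CPM in replicate 2, against 77.4 and 66.5 CPM in the inputs.

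**Figure D4:**
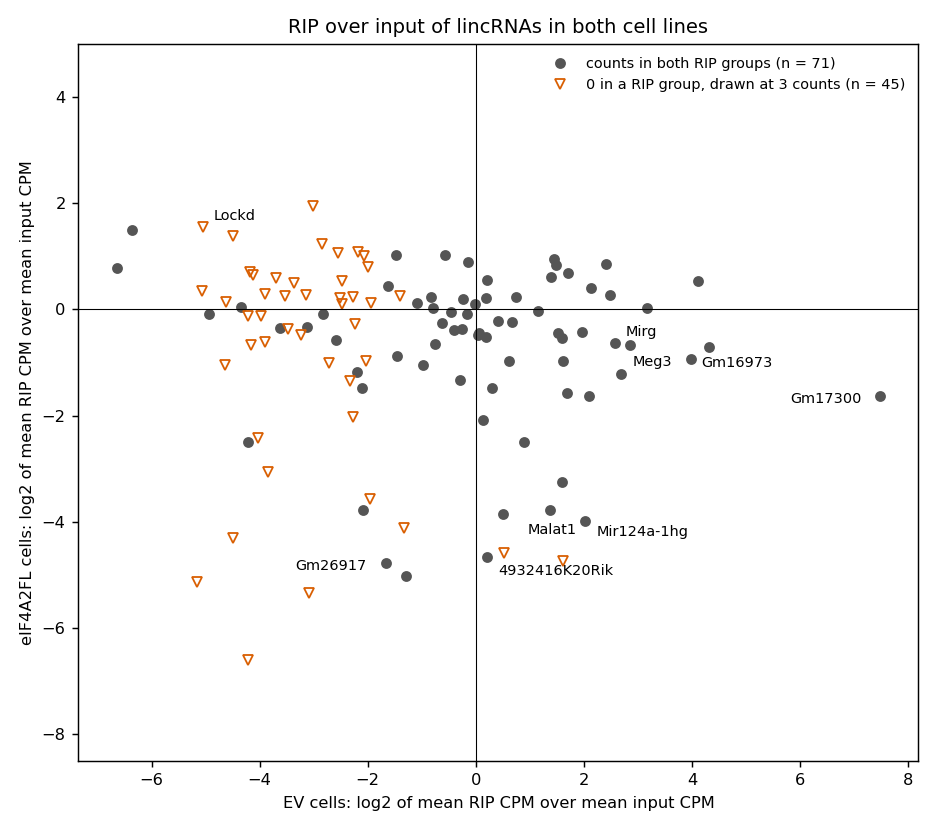
Log2 ratio of mean RIP to mean input CPM for each lincRNA in EV cells (x axis) and eIF4A2FL cells (y axis). Each point is 1 gene; 71 had reads in both RIP groups and 45 had none in a RIP group and are drawn at the floor of 3 reads, and Meg3, Malat1, Mirg, Gm16973 and Gm17300 lie to the right of 0 and below it.

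Both precipitates were then set against each other, which leaves out the inputs that chose the genes but shares the RIP EV libraries with the comparison above. edgeR called 0 lincRNAs and 0% of all genes in either direction, with a lowest adjusted p of 0.0650, and 14 lincRNAs were lower and 40 higher at unadjusted p under 0.05, against 5.31 and 24.0% of all genes. DESeq2 on the 4 libraries called 13 lower and 5 higher, against 4.86 and 7.49% of all genes, and edgeR over all 8 libraries 14 lower and 39 higher, against 5.46 and 24.8%. Without RIP EV replicate 1 there were 37 lower and 47 higher (21.6 and 43.8% of all genes), and without replicate 2 there were 32 lower and 55 higher (18.6 and 59.0%). Without RIP eIF4A2FL replicate 1 there were 5 lower and 0 higher (0.456 and 0.186%), and without replicate 2 there were 4 lower and 0 higher (0.744 and 0.205%). The lincRNAs' median log2 fold change was 0.39 and that of all genes 0.67, or 0.64 and 0.91 when scaled by library size alone. In both libraries of RIP eIF4A2FL, 18 lay below both RIP EV libraries (15.5% against 12.1% of all genes) and 51 above both (44.0% against 51.9%).

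Among the 18 lincRNAs below both RIP EV libraries, those with the widest margin were Gm17300, 533-fold by mean CPM, 4932416K20Rik, 50.7-fold, Malat1, 36.9-fold, Gm29680, 35.4-fold, and Gm16973, 26.6-fold. Meg3 was 20.5-fold and Mirg 16.4-fold lower. For 4932416K20Rik the RIP EV libraries gave 117 and 82.2 CPM, those of RIP eIF4A2FL 2.23 and 1.70 CPM, and its inputs of 53.4 and 119 CPM in EV cells overlapped with RIP EV. DESeq2 on 4 libraries called all 7 (adjusted p from 4.39e-32 for Meg3 to 0.0109 for Gm29680), and edgeR's adjusted p was 0.0650 for 6 of them and 0.0808 for Gm29680.

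Higher in RIP eIF4A2FL were RNAs with no read in RIP EV. Against the floor of 3 reads over both RIP EV libraries, Lockd, at 46.2 and 73.6 CPM, was at least 108-fold higher, Bvht at least 45.3-fold, Gm32856 at least 38.3-fold, Gm17586 at least 34.5-fold and Gm43568 at least 21.9-fold. These bounds cover counting error only and not the spread of 171% between the RIP EV libraries. edgeR called none of these RNAs, and DESeq2 on the 4 libraries called all but Gm43568. In their own inputs Lockd and Bvht were at 11.5 to 29.2 and at 7.36 to 11.9 CPM, so these RNAs were also present at input levels before the precipitation. Among the lincRNAs tied to pluripotency, Lncenc1 was at 0.978 CPM in RIP EV replicate 1, 130 CPM in RIP EV replicate 2 and 150 and 106 CPM in RIP eIF4A2FL, a pair of RIP EV values too far apart for a comparison. 1700020I14Rik had 0 reads in RIP EV replicate 1 and 16.1 CPM in replicate 2, against 52.3 and 61.2 CPM in RIP eIF4A2FL.

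Whether recovery over input differed between the cell lines was tested as an interaction over all 8 libraries. Of the 116, 9 had a lower ratio in eIF4A2FL cells (7.76% against 2.10% of all genes) and 33 a higher one (28.4% against 19.2%), and 30 of the 33 had 0 reads in both RIP EV libraries. The median difference was 0.60 for the lincRNAs and 0.64 for all genes, or 0.88 and 0.92 by library size alone. The 9 were Meg3, Malat1, Mirg, Mir124a-1hg, Gm26917, 4932416K20Rik, Gm16973, Gm26812 and Gm17300, with adjusted p from 0.0176 upwards. Leaving out input EV replicate 1 or any library of eIF4A2FL cells gave 0 calls in both directions and 0% of all genes. Leaving out RIP EV replicate 1 gave 26 lower and 49 higher (11.8 and 35.9% of all genes), leaving out replicate 2 gave 23 and 55 (12.4 and 54.0%), and leaving out input EV replicate 2 gave 7 and 20 (0.651 and 12.2%).

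Within this pattern, 7 lincRNAs (6.03%, against 1.98% or 213 of all genes) lay above both inputs in RIP EV and below both inputs in RIP eIF4A2FL, namely Meg3, Malat1, Mirg, Mir124a-1hg, Gm37494, Gm16973 and Gm17300. Gm16973 was at 13.4 and 17.3 CPM in input eIF4A2FL and at 9.64 and 6.41 CPM in its precipitate (log2 fold change −1.24 ± 0.37, adjusted p = 0.0473), a call that was lost without RIP replicate 1 (adjusted p = 0.0872), RIP replicate 2 (0.259) or input replicate 2 (0.122). Gm17300 was at 2.38 and 1.12 CPM in those inputs and at 0.535 and 0.601 CPM in the precipitate, from 6 reads each. The opposite pattern, below both inputs in RIP EV and above both in RIP eIF4A2FL, was seen for 14 lincRNAs, or 12.1%, against 17.1% of all genes. Of the 28 lincRNAs that were lower in RIP eIF4A2FL, 13 lay below both EV inputs in RIP EV as well, and 4 lay above both. Among the 13 were the 7 with 0 reads in both RIP EV libraries. Of all genes, called or not, 44.9% lay below and 14.6% above both EV inputs, and 18.2% had 0 reads in both RIP EV libraries. The shares among all genes called lower were not counted.

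Last, the inputs of the 2 cell lines were compared, which tests the effect of the re-expressed protein on RNA levels. In bulk RNA, fewer cells that express a gene and less of its RNA per cell cannot be told apart. edgeR called 0 lincRNAs (0% of all genes in both directions), with a lowest adjusted p of 0.610, as did DESeq2 on the same libraries, which called 0.0465% of all genes lower and 0.112% higher. At unadjusted p under 0.05, 16 lincRNAs were lower and 5 higher in eIF4A2FL cells, against 3.66 and 3.74% of all genes, and the medians were −0.33 for the lincRNAs and −0.01 for all genes. In both eIF4A2FL inputs, 33 lincRNAs (28.4% against 17.3%) lay below both EV inputs and 15 (12.9% against 19.8%) above both. The clones of a group differ in origin as well as in the construct, and clone and construct cannot be told apart.

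Lncenc1 was at 76.9 and 79.0 CPM in input EV and at 183 and 147 CPM in input eIF4A2FL, and Neat1 was at 77.4 and 66.5 CPM in EV and 132 and 131 CPM in eIF4A2FL cells. Mir124a-1hg was at 17.3 and 13.4 CPM in EV and at 55.4 and 33.9 CPM in eIF4A2FL inputs. Their groups did not overlap, and Lncenc1 and Mir124a-1hg were among the 5 highest fitted values (1.08 and 1.52 on the log2 scale). The lowest fitted values among lincRNAs whose inputs did not overlap were those of Gm26609 (−1.74), 4930509E16Rik (−1.73), Gm5113 (−1.60), Gm46332 (−1.46) and Gm16755 (−1.41). None of these passed the test.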

How the data were processed

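RNA of the 4 inputs and 4 anti-Flag precipitates (5 µg antibody, 3 h) had been sequenced with a 3′ mRNA kit. The authors trimmed reads, aligned them to mm10 with STAR 2.5.3a and counted reads per gene with HTSeq 0.11.2; the deposited matrix holds these raw counts. Which annotation release was counted, and with which strand setting, was not given in the sources used here. In all, 5 summary lines were left out of library sizes, and all 8 sample columns were used. Gene types came from GENCODE vM21, which 52403 of 52550 identifiers matched, and miRNA and gene classes from RefSeq (GRCm38.p6).

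Counts were tested with edgeR 4.0.16 in R 4.3.3 (TMM factors, quasi-likelihood fit, genes at a CPM of 1 or more in the 4 inputs, Benjamini-Hochberg adjustment over all genes tested). Each comparison was fitted on its own 4 libraries, and the interaction on all 8. The standard error of a log2 fold change is its size divided by the square root of F. A group lying above or below another means that all libraries of one exceed all of the other. Where a group had 0 reads, folds were bounded with 3 reads over both libraries, a floor that covers counting error only. Alternatives were DESeq2 1.42.0 on 4 and 8 libraries, other scalings, filters and member rules, a replicate block and each library left out; fits on 7 libraries without a RIP EV library were added after seeing the data. The edgeR fit was also run on simulated counts with the same spread in all libraries. That setting does not represent the wider spread of the RIP EV libraries.

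The members and gene lists were chosen with earlier results of these data known. Named lincRNAs are those on the lists, the 10 with the most input reads, the 5 lowest and 5 highest fitted values among lincRNAs with non-overlapping groups in each 4-library comparison other than RIP EV against its input, those beside the CPM minimum, and genes of the same locus; others named were chosen after their values were seen. Same-numbered libraries did not deviate together (correlations of −0.028 to 0.118), so replicate numbers were not taken as pairs.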

Additional observations from a re-analysis of the deposited data

Results flagged for a closer look

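For 12 of the 71 lincRNAs with reads in every group, recovery over input differed between the cell lines by the edgeR interaction test on all 8 libraries. Of all 116, 9 were called lower and 33 higher, against 2.10 and 19.2% of all genes. Asking for reads in every group drops 30 of the 33 higher calls, which had 0 reads in both RIP EV libraries. The share among all genes with reads in every group was not counted. Values are log2 differences of RIP over input, eIF4A2FL minus EV cells. They were −9.37 for Gm17300, −6.3 for Mir124a-1hg, −5.43 for Malat1, −5.19 for 4932416K20Rik, −5.18 for Gm16973, −4.2 for Meg3, −3.83 for Gm26812, −3.52 for Mirg and −3.44 for Gm26917. The 3 positive ones were 7.24 for Gm2694, 7.17 for 4930461G14Rik and 4.33 for EU599041. Each of these 3 had 0 reads in 1 of its RIP EV libraries. Gm2694, Gm26812 and EU599041 were added after their values were seen. Gm37494, also added then, lay above both inputs in RIP EV and below both in RIP eIF4A2FL, and its difference of −2.44 did not pass (adjusted p = 0.120).

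All 12 calls were lost, with those of all other lincRNAs and of all genes, without input EV replicate 1 or without any library of eIF4A2FL cells. In these 5 settings the adjusted p of the 12 lay between 0.0506 and 0.158. The differences themselves moved little for Meg3, which lay between −4.39 and −3.84, and for Mirg, which lay between −3.78 and −3.11. Malat1 was at −4.01 without input eIF4A2FL replicate 1, −6.13 without input replicate 2, −4.79 without RIP eIF4A2FL replicate 1 and −6.14 without RIP replicate 2, and without input EV replicate 2 its call was lost (adjusted p = 0.0787). Mir124a-1hg was at −6.95 without RIP eIF4A2FL replicate 1 and −5.68 without replicate 2. Without input EV replicate 2, Gm26917 was at −4.16, 4932416K20Rik at −5.78 and Gm2694 at 6.62 (adjusted p = 0.0771), and without input EV replicate 1 Gm26812 was at −4.51. Without RIP EV replicate 1 or 2, Gm17300 was at −7.57 or −10.01, 4930461G14Rik at 6.49 or 10.61, Gm2694 at 10.90 or 6.11 and EU599041 at 7.95 or 3.16, and Gm17300 was at −8.72 without input eIF4A2FL replicate 1. The part that the spread of the RIP EV libraries has in these values was not tested.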

How the results depend on the processing

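For RIP eIF4A2FL against its input, the 28 lower calls became 17 with DESeq2 on 8 libraries (4.00% of all genes) and 0 with edgeR on all 8 (0.0558%). The single higher call became 0 on 7 libraries without RIP EV replicate 1 and on all 8, 2 with DESeq2 on 4 libraries, 6 with library size alone, 3 with no filter and 0 to 3 with a library left out. The median of −0.59 became −0.63 with DESeq2 on 4 libraries, −0.30 with library size alone, −0.52 with a replicate block and −0.63 to −0.54 with a library left out. For RIP eIF4A2FL against RIP EV, 0 lower calls became 13 and 22 with DESeq2 on 4 and 8 libraries, 14 on all 8, 2 with no filter, 6 with the replicate block and 4 to 37 with a library left out; 0 higher calls became 5 and 39 with DESeq2, 39 on all 8 and 0 to 55 with a library left out, and the median lay between 0.10 and 5.97 with a library left out. For RIP EV against its input, 0 lower calls became 3 and 51 with DESeq2, 46 on all 8, 1 with the block and 0 to 80 with a library left out; 0 higher calls became 6 and 9 with DESeq2, 7 on all 8, 4 with the block and 1 to 21 with a library left out, and the median lay between −6.51 and −0.97 with a library left out. Between the inputs, 0 lower calls became 1 with no filter (0.0838% of all genes) and 1 with the block (0.205%). The 0 higher calls became 1 with the block (0.363%), and the median lay between −0.37 and −0.17 with a library left out. For the interaction, 9 lower calls became 15 with DESeq2 and 0 to 26 with a library left out, and 33 higher calls 0 to 55. The shares of all genes moved too. Lower and higher calls of RIP EV against its input were 32 and 10.00% of all genes with DESeq2 on 8 libraries, 26.3 and 4.50% on all 8 with edgeR and 2.53 and 1.43% with the block. Those of RIP eIF4A2FL against RIP EV were 10.5 and 30.4%, 5.46 and 24.8%, and 1.59 and 1.95% in the same order, and 0.119 and 0.0248% with no filter. Those of RIP eIF4A2FL against its input were 4.00 and 2.55% with DESeq2 on 8 libraries and 5.27 and 18.0% with library size alone. They were 5.16 and 6.61% with no filter and 6.50 and 6.96% with the block. Those of the interaction were 5.65 and 24.5% with DESeq2. Counting CPM on all table reads left 77 of the 116 lincRNAs.

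In RIP eIF4A2FL against its input, 4 values that did not pass the test changed sign. With single libraries left out, Gm42418 lay between −4.46 and 3.35, Platr3 between −1.49 and 0.96, 1810058I24Rik between −0.62 and 0.44 and AU020206 between −0.39 and 0.25. Platr3 was −0.13 with the replicate block, and with library size alone 1810058I24Rik was 0.10 and AU020206 0.23. The cause was not tested. With the replicate block 23 of the 28 lower calls remained. Replicate numbers were not shown to pair the libraries, so a call lost under the block is not read as a weaker effect.

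With 2 libraries a group, a lone library left in a group is assumed to vary like the other group. A count of 0 over both RIP EV libraries, seen for 42 of the 116, allows up to 0.557 CPM by counting error alone, without the spread between these libraries.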
